A study of Homo sapiens with 18 samples.

Results

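The small leucine-rich proteoglycans are secreted matrix proteins built on a curved run of leucine-rich repeats, and 10 of their genes were followed here: LUM, DCN, BGN, FMOD, KERA, EPYC, OGN, PRELP, ASPN and OMD. They are 10 of the 58721 genes of a read count table, and they were chosen by name after the difference between TADA2B knockout and control cells had been measured, in which LUM was higher. For these 10 genes that comparison is therefore described below without a test. Family members bind fibrillar collagen and set fibril width and spacing, and several of them also bind growth factors and cell surface receptors. Most carry glycosaminoglycan chains, which are chondroitin or dermatan sulfate on decorin, biglycan and epiphycan and keratan sulfate on lumican, keratocan, fibromodulin and osteoadherin. In tissue they are made mainly by fibroblasts, cartilage, bone and corneal cells, and lumican and decorin have been studied in melanoma as matrix proteins that affect tumour cell migration.

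The libraries were poly(A)-selected, strand-marking RNA-seq libraries of A375, an established human melanoma cell line. Cells with and without TADA2B, an adaptor gene of the SAGA complex that acetylates histones, were made to overexpress SOX10, a melanocyte lineage transcription factor. The 6 groups held 3 libraries each: control cells with a guide RNA against GFP and a wild-type genotype, the same control cells overexpressing SOX10, TADA2B knockout cells made with guide 1, guide 1 knockout cells overexpressing SOX10, TADA2B knockout cells made with guide 2, and guide 2 knockout cells overexpressing SOX10. The labels do not say whether a knockout line is a clone or a pool, which construct carried SOX10, or whether the 3 libraries of a group came from separate cultures, so p-values measure only the spread between these libraries, which may be technical.

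Library totals ran from 58573910 to 79874237 counted reads. Levels are given in CPM, each gene's count relative to the scaled (TMM) total of its library, and 3 counts correspond to between 0.0376 and 0.0512 CPM before that scaling. No pair of libraries of a group looked like the same library counted again, since the chi-square per gene between them was 3.54 to 11.8. TADA2B itself was at 32.2 to 32.8 CPM in the control libraries, at 25.6 to 26.4 CPM in guide 1 libraries and at 27.5 to 30.2 CPM in guide 2 libraries, so its transcript fell by 0.25 ± 0.0402 (log2, SE) across both guides (edgeR quasi-likelihood test, adjusted p = 1.16e-06). A cut in a gene need not lower its transcript. Mean SOX10 was 354 CPM in control cells, 452 CPM with overexpression, 83.6 and 43.4 CPM in the guide 1 and guide 2 knockouts, and 291 and 246 CPM in these knockouts with overexpression. Guide 2 replicate 2 without SOX10 lay apart from its group on the fourth principal component, which held 2.35% of the variance. The melanocyte lineage markers were partly present, with SOX10, MITF and CSPG4 well detected, group means of MLANA and PMEL between 0.412 and 1.55 CPM, and TYR below 0.1 CPM in all groups.

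Of the 10 genes, 5 had enough reads to be tested (LUM, DCN, BGN, PRELP and OMD), and OMD passed the filter on low counts mainly through the control cells. FMOD, KERA, EPYC, OGN and ASPN did not pass it and are described by their raw counts. The family lies mostly in small clusters (coordinates of hg38 and GENCODE 29). On chromosome 12, EPYC (90963679 to 91005026), KERA (91050491 to 91057983), LUM (91102629 to 91111831) and DCN (91140484 to 91183123) follow each other on the minus strand, with 28.7 kb between LUM and DCN. On chromosome 9, OGN (92383967 to 92404696), OMD (92414245 to 92424461) and ASPN (92456205 to 92482506) are also on the minus strand and lie within introns of CENPP, which runs the other way. On chromosome 1, FMOD (203340628 to 203351758, minus strand) and PRELP (203475828 to 203491352, plus strand) are 124 kb apart. BGN is alone on chromosome X (153494939 to 153509554, plus strand), and its start overlaps HAUS7 on the other strand. None of these overlaps shares exon bases, but the strand setting of the counting is not given in the sources used here, so intronic reads of CENPP could not be told apart from the chromosome 9 members if counting ignored strand.

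Promoter sequences from RefSeq (GRCh38.p14, 250 bases before the start) were matched for 6 of the 10 genes. There was none for LUM, DCN, KERA or OMD. Those of BGN and PRELP are shown because these genes moved strongly and in different patterns, and that of EPYC because its reads came mostly from cells overexpressing SOX10. They are written 5′ to 3′ on the gene's strand, without the last 41 bases for BGN and 54 bases for EPYC, which GENCODE places inside the gene. Capitals mark matches to any of 5 short motifs on either strand, the SOX cores ACAAAG and AACAAT, the E-box CACGTG, the AP-1 site TGACTCA and the TATA box TATAAA.
BGN (chrX:153494730-153494938, plus strand): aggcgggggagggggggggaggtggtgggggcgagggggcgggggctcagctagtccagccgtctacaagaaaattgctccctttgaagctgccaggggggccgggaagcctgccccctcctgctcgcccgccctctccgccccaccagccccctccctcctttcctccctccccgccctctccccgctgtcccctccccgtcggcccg
PRELP (chr1:203475556-203475805, plus strand): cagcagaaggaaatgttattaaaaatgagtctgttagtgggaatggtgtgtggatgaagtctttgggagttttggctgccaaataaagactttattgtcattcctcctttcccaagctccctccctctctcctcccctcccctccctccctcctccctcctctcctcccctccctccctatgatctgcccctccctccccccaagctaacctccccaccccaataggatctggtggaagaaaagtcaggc
EPYC (chr12:91005027-91005222, minus strand): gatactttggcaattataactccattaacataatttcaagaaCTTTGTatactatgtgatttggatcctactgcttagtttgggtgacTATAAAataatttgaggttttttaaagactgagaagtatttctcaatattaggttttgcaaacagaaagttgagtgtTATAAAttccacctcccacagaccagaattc

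The 3 sequences differ in base composition. The BGN window was 74.0% G or C with 16 CG pairs, against a median of 58.0% and 11.0 over all 35116 RefSeq windows of that length. The PRELP window was 52.8% G or C and held no CG pair, and the EPYC window was 35.6% and held none. Neither the BGN nor the PRELP window held any of the 5 motifs. EPYC held TATAAA at 2 places, from 162 and from 85 bases before the start, and ACAAAG on the other strand at 2 places, from 208 bases before the start and in the last 6 bases, which are not printed. Among genes whose windows are not shown, OGN held AACAAT and TATAAA, and FMOD held TATAAA, all on the other strand. Such matches are common, since ACAAAG was in 13.7% of all windows, AACAAT in 8.98%, CACGTG in 6.35%, TGACTCA in 4.20% and TATAAA in 10.7%, and a match is a description of letters, not of a bound site.

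LUM encodes lumican, which carries keratan sulfate in the cornea and binds collagen fibrils. Its level was 2.46, 3.08 and 2.27 CPM in the 3 control libraries and 5.02, 5.97 and 5.10 CPM in control cells with SOX10. In the knockout cells it was 22.8, 22.2 and 20.6 CPM with guide 1 and 22.2, 25.3 and 22.4 CPM with guide 2. With SOX10 added it was 37.5, 36.9 and 37.5 CPM in guide 1 cells and 42.5, 43.3 and 44.2 CPM in guide 2 cells. The lowest knockout library was thus well above the highest control library, the 2 guides overlapped without SOX10, and every SOX10 library was above every library of its own background without SOX10.

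DCN encodes decorin, a chondroitin or dermatan sulfate proteoglycan that binds collagen and TGF-beta. It was 0.716, 0.593 and 0.584 CPM in control cells, 0.764, 0.914 and 0.778 CPM in guide 1 cells, and 0.610, 0.767 and 0.758 CPM in guide 2 cells, so control and guide 2 libraries overlapped. It was 1.05, 0.994 and 1.21 CPM in control cells with SOX10, 2.35, 2.26 and 2.08 CPM in guide 1 cells with SOX10, and 2.35, 2.58 and 2.81 CPM in guide 2 cells with SOX10. All 9 libraries with SOX10 were above all 9 without it. DCN and LUM were therefore both highest in knockout cells with SOX10, but with the knockout alone LUM stood clear of control with both guides and DCN only with guide 1, by a small gap.

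BGN encodes biglycan, the closest relative of decorin and also known as a ligand of Toll-like receptors. It was highest in control cells, at 20.8, 20.2 and 20.4 CPM, and 18.1, 18.9 and 18.0 CPM in control cells with SOX10. It was 11.4, 11.6 and 9.75 CPM with guide 1 and 11.5, 9.88 and 11.2 CPM with guide 2. It was lowest in knockout cells with SOX10, at 4.42, 4.53 and 4.84 CPM with guide 1 and 5.14, 4.98 and 4.95 CPM with guide 2. The groups with and without SOX10 did not overlap in any background, and no knockout library reached a control library.

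PRELP encodes prolargin, which has a basic amino-terminal region that binds heparan sulfate and links basement membranes to collagen. It was 1.48, 1.62 and 1.60 CPM in control cells and 1.31, 1.11 and 1.25 CPM in control cells with SOX10. It was 0.458, 0.499 and 0.514 CPM with guide 1 and 0.395, 0.339 and 0.421 CPM with guide 2. With SOX10 it was 0.504, 0.793 and 0.916 CPM in guide 1 cells, where the lowest library overlapped the group without SOX10, and 0.866, 0.765 and 0.657 CPM in guide 2 cells. PRELP thus lay below control in every knockout library, and knockout cells with SOX10 lay between the control and the knockout cells in their means.

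OMD encodes osteoadherin, a keratan sulfate proteoglycan of bone. Its reads were few and came mostly from control cells, with 32, 39 and 17 counts in the 3 libraries. It had 2, 7 and 14 counts in control cells with SOX10, 1 count in each guide 1 library and 0, 1 and 0 counts in the guide 2 libraries. With SOX10 the counts were 6, 4 and 1 in guide 1 cells and 1, 11 and 1 in guide 2 cells. The libraries of the 2 SOX10 knockout groups overlapped those of control cells with SOX10.

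**Figure D1:**
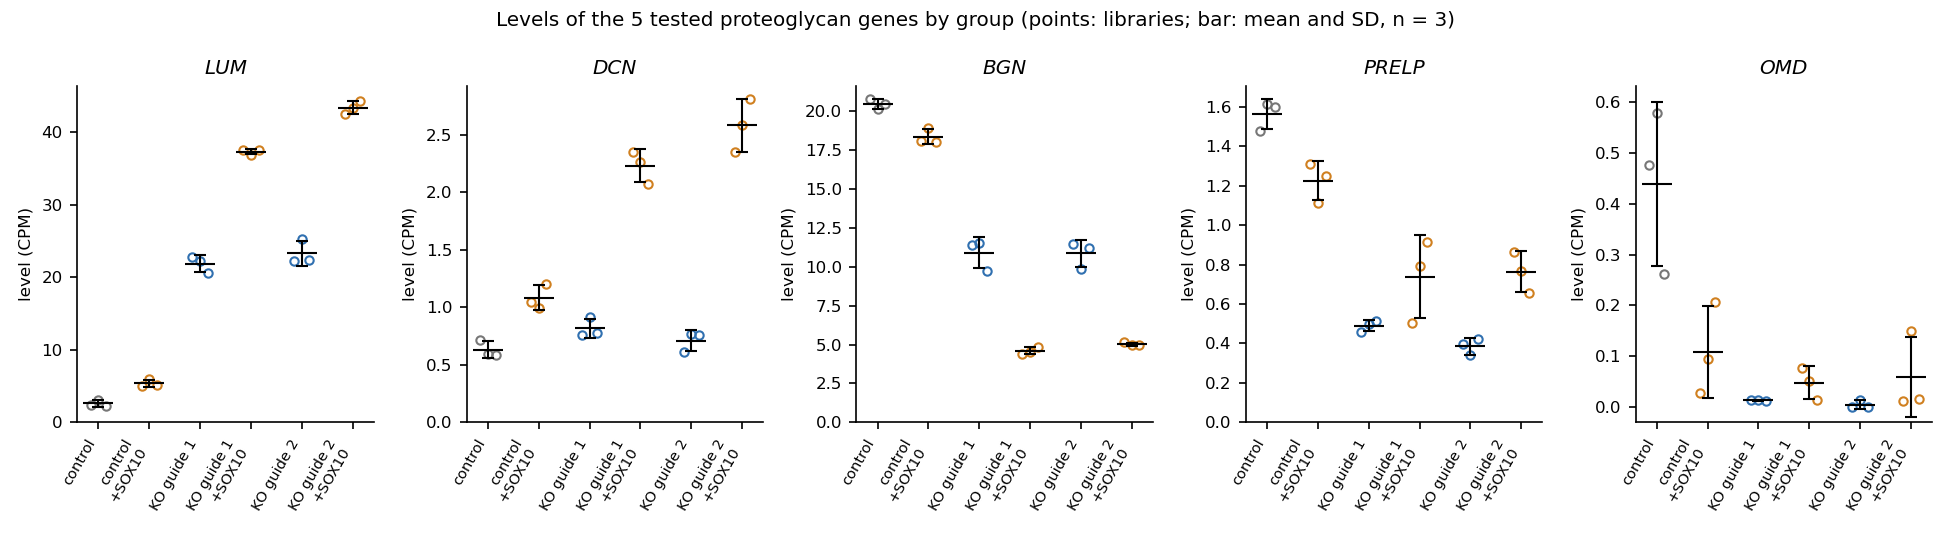
Level of the 5 tested genes in CPM (vertical axis, linear, a scale of its own for each gene) in the 6 groups. Circles are libraries and black bars the mean and SD of 3 libraries; LUM rises from a mean of 2.61 CPM in control cells to 43.3 CPM in guide 2 knockout cells with SOX10, while BGN falls from 20.5 to 5.02 CPM.

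Per kilobase of exon, the order of the 2 most abundant members turned over. In control cells BGN was at 8.34 ± 0.129 CPM per kb (SD, n = 3) and LUM at 0.866 ± 0.141 CPM per kb, so the LUM to BGN ratio was 0.0908 to 0.125 in the 3 libraries. The ratio was 0.226 to 0.258 in control cells with SOX10, 1.56 to 1.73 with guide 1 and 1.57 to 2.09 with guide 2. In knockout cells with SOX10 it was 6.32 to 6.92 with guide 1 and 6.74 to 7.29 with guide 2, where LUM was at 12.4 ± 0.123 and 14.4 ± 0.285 CPM per kb. Averaged over all libraries, LUM was at 7.41, BGN at 4.77, PRELP at 0.150, DCN at 0.105 and OMD at 0.0458 CPM per kb. The order of DCN and PRELP depended on the group, since PRELP was at 0.272 and DCN at 0.0491 CPM per kb in control cells, while in guide 1 and guide 2 cells with SOX10 DCN was at 0.174 and 0.201 and PRELP at 0.128 and 0.133 CPM per kb. The exon length of DCN covers 12.8 kb of merged isoforms, against 3.01 kb for LUM, which lowers its value on this scale.

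The knockout without SOX10 is the comparison in view when the genes were chosen, so its values are a description. Across both guides, the fitted difference from control was 3.11 ± 0.0734 (log2, SE) for LUM, 0.27 ± 0.169 for DCN, -0.91 ± 0.0562 for BGN and -1.84 ± 0.177 for PRELP. Over all 21060 genes tested, 58.1% changed in this comparison, with a median difference near 0. The same counts scaled by library size alone, which moves the median of all genes to 0.15, gave 3.27 for LUM, 0.43 for DCN and -0.75 for BGN. By guide, LUM was at 3.07 and 3.16, BGN at -0.91 with either guide, and PRELP at -1.67 and -2.01. OMD had 88 counts in control cells against 3 and 1 in the knockout groups. In these bulk samples, fewer cells that make a transcript and less of it per cell cannot be told apart.

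The effect of the knockout was also measured in cells that all overexpressed SOX10. These libraries are not those of the comparison in view when the genes were chosen. The knockouts were made with the same guides, however, and earlier results of these data were known, so this is not independent support. In cells with SOX10, LUM and DCN rose with the knockout, and BGN and PRELP fell. LUM was 7.48-fold higher (2.90 ± 0.0632 log2, adjusted p = 6.57e-33) and DCN 2.21-fold higher (1.15 ± 0.140, adjusted p = 3.19e-09). BGN was 3.82-fold lower (-1.93 ± 0.0595, adjusted p = 6.58e-28) and PRELP 1.63-fold lower (-0.70 ± 0.172, adjusted p = 0.000614). OMD did not pass (-0.98 ± 0.619, adjusted p = 0.185), and without guide 2 SOX10 replicate 2, the library with 11 OMD counts, it was -1.96 with an adjusted p of 0.0170. In all, 4 of the 5 tested genes passed, beside 55.0% of all genes tested. Tests are edgeR quasi-likelihood tests, two-sided, with Benjamini-Hochberg adjustment over all 21060 genes and a threshold of 0.05.

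Both guides gave these results separately. In cells with SOX10, LUM differed from control by 2.79 with guide 1 and 3.01 with guide 2, DCN by 1.04 and 1.25, BGN by -2.00 and -1.87, and PRELP by -0.73 and -0.67, and all 8 values passed. Among all genes, 46.8% changed with guide 1 and 54.8% with guide 2. The split over all genes depended on scaling, with 5946 higher and 5633 lower under TMM and 9144 higher and 3126 lower under library-size scaling. The 4 genes kept their direction and passed under both. SOX10 itself was lower in the knockout cells of this comparison (-0.76 ± 0.0308, adjusted p = 4.68e-20), and its part in these differences was not tested.

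SOX10 overexpression in control cells raised LUM and DCN. LUM was 2.06-fold higher (1.04 ± 0.0926 log2, adjusted p = 2.32e-12) and DCN 1.71-fold higher (0.78 ± 0.185, adjusted p = 0.000813). OMD had 88 counts in the control libraries and 23 with SOX10, and since it entered the test through the control libraries, no test of it against them is given. BGN was -0.16 ± 0.0647 (adjusted p = 0.0568, interval -0.30 to -0.02) and PRELP -0.35 ± 0.191 (adjusted p = 0.161, interval -0.77 to 0.06). BGN passed in a fit of only the compared groups (adjusted p = 0.0165), without guide 1 replicate 3 (0.0440) and without guide 2 replicate 2 (0.0371). Of LUM, DCN, BGN and PRELP, 2 passed, beside 34.4% of all genes. The control libraries are shared with the comparison in which the genes were chosen.

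In knockout cells SOX10 overexpression changed all 5 tested genes, beside 56.2% of all genes tested. LUM rose 1.78-fold (0.83 ± 0.0408, adjusted p = 6.41e-21), DCN 3.14-fold (1.65 ± 0.115, adjusted p = 4.80e-16) and PRELP 1.72-fold (0.78 ± 0.162, adjusted p = 6.13e-05). BGN fell 2.26-fold (-1.18 ± 0.0529, adjusted p = 2.20e-22). OMD also passed (adjusted p = 0.00774), but on 3 and 1 counts in the guide 1 and guide 2 cells without SOX10 against 11 and 13 with it, and it no longer passed without guide 2 SOX10 replicate 2 (adjusted p = 0.189). LUM, DCN, BGN and PRELP passed with each guide alone and OMD with guide 2 only, where 43.7% of all genes changed with guide 1 and 48.6% with guide 2. DCN was at 1.45 and 1.86 with guides 1 and 2, BGN at -1.24 and -1.11, LUM at 0.77 and 0.90, and PRELP at 0.58 and 0.99. The guide 1 and guide 2 knockout libraries are shared with the comparison used in the choice.

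**Figure D2:**
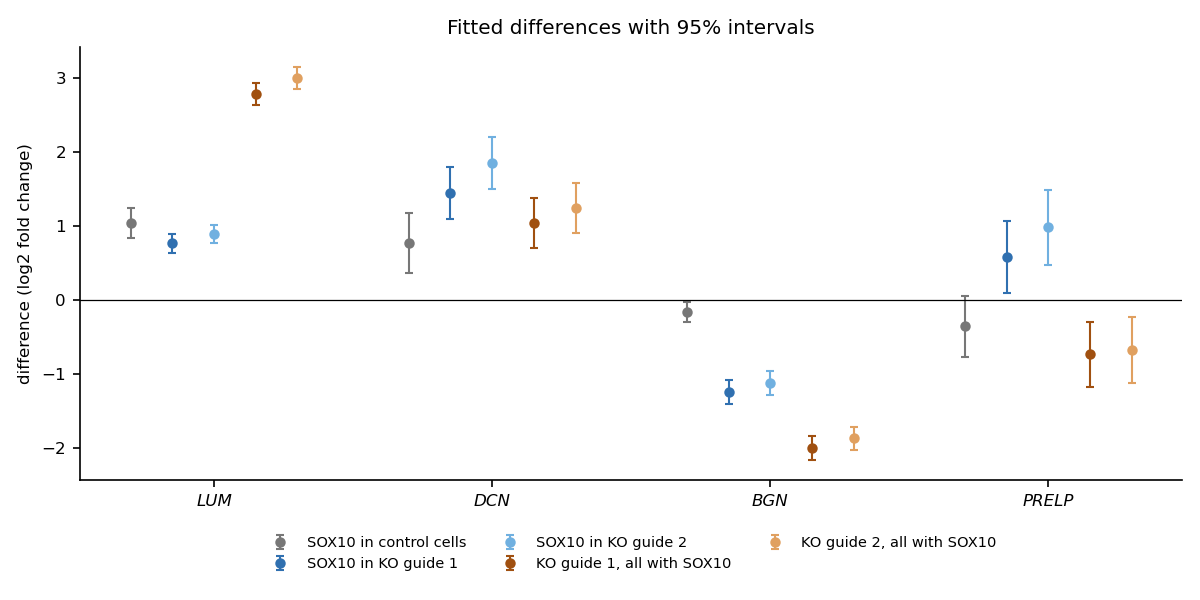
Fitted log2 differences (vertical axis) with 95% intervals for LUM, DCN, BGN and PRELP. Grey and blue points are SOX10 overexpression in control, guide 1 and guide 2 cells and brown points are each guide against control with SOX10 in all cells; BGN moves from -0.16 in control cells to -1.24 and -1.11 in knockout cells, while PRELP goes from -0.35 to 0.58 and 0.99.

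The SOX10 effect itself was tested for a difference between knockout and control cells. It differed for DCN, which gained a further 0.88 ± 0.222 (log2, adjusted p = 0.00169) in knockout cells, and for BGN, which lost a further 1.02, written -1.02 ± 0.0838 (adjusted p = 3.15e-13). It differed for PRELP by 1.14 ± 0.250 (adjusted p = 0.000349), with a sign below 0 in control cells that did not pass and a rise in knockout cells. For LUM the difference was -0.21 ± 0.102 (adjusted p = 0.120, interval -0.43 to 0.02), and without control replicate 2, the control library with most LUM, it was -0.34 with an adjusted p of 0.0150. So 3 of these 4 genes passed, beside 33.3% of all genes. SOX10 rose far more in knockout cells (2.15 log2) than in control cells (0.35 log2), so a different SOX10 effect and a different step in SOX10 level cannot be told apart.

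Without SOX10, 0 of the 5 tested genes passed edgeR's quasi-likelihood test between guides, beside 8.74% of all genes. In DESeq2 0 passed, beside 2153 of 21060 genes. In the edgeR test 0 had an unadjusted p under 0.05, for which the share of all genes is not given. The interval for LUM was -0.04 to 0.22. With SOX10, LUM was 1.16-fold higher with guide 2 (0.22 ± 0.0560, adjusted p = 0.00614) and the other 4 did not pass, beside 12.1% of all genes. The intervals of the guide difference with SOX10 were -0.11 to 0.52 for DCN, -0.05 to 0.31 for BGN and -0.41 to 0.52 for PRELP. Knockout cells with SOX10 set against control cells, which joins both changes, differed by 3.94 for LUM, 1.92 for DCN, -2.09 for BGN and -1.05 for PRELP, with adjusted p from 1.80e-35 for LUM to 8.88e-07 for PRELP, beside 57.9% of all genes. This comparison shares the control libraries with the one known when the genes were chosen, so it adds no independent support.

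The 5 untested members stayed near 0 reads in most libraries. EPYC, an epiphycan gene of cartilage at the end of the LUM and DCN cluster, had 3 counts in the 9 libraries without SOX10 and 38 in the 9 with it. Its counts were 0, 6 and 2 in control cells with SOX10, 4, 11 and 5 in guide 1 cells with SOX10, and 3, 5 and 2 in guide 2 cells with SOX10, while control and guide 2 cells without SOX10 had none in any library, which allows up to 3 counts a library. In a fit without the filter on low counts EPYC passed for SOX10 in knockout cells (adjusted p = 0.000372, beside 29.3% of the 41717 genes in that fit) and in control cells (adjusted p = 0.0465, beside 16.2%). No fold is given, since control and guide 2 cells without SOX10 had no reads and guide 1 cells had 3. KERA, the keratocan gene of the cornea that lies between EPYC and LUM, had 1 count in all 18 libraries.

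OGN, the osteoglycin or mimecan gene, had 33 counts without SOX10 and 51 with it, spread over 17 of 18 libraries and never above 9. ASPN, the asporin gene, had 28 counts in all, and FMOD, the fibromodulin gene, 12, of which 7 were in guide 2 cells with SOX10. None of KERA, OGN, ASPN or FMOD passed in any comparison of the fit without a filter. At these depths a difference of several fold in these 4 genes would not have been detectable in many comparisons.

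**Figure D3:**
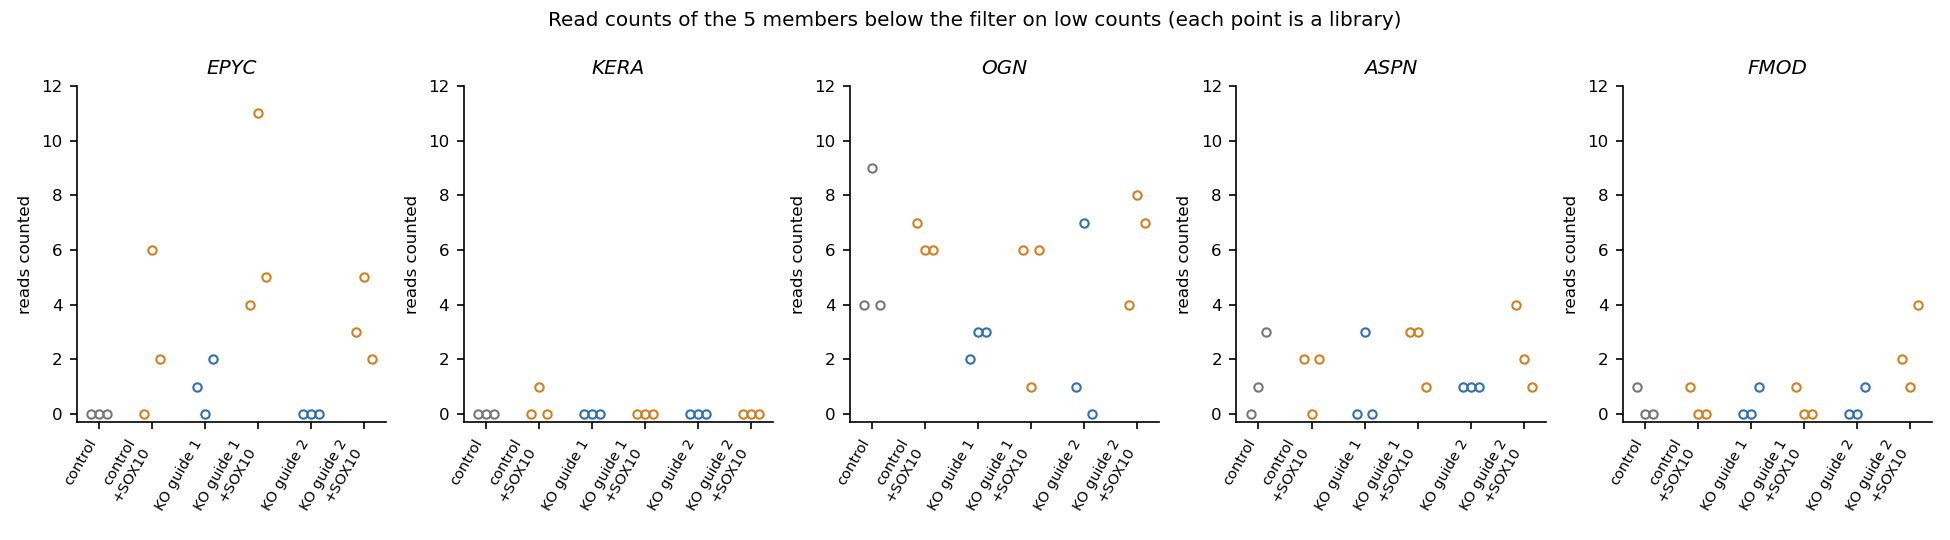
Raw read counts (vertical axis, linear) of the 5 members that did not pass the filter, in the 6 groups. Each circle is a library; EPYC reaches 11 counts in a guide 1 library with SOX10 and is at 0 in all control and guide 2 libraries without SOX10, while KERA has 1 count in all.

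The stretch around LUM and DCN was otherwise silent. Within 500 kb of the chromosome 12 cluster, 9 other genes are annotated and none passed the filter, the highest count of any of them in a library being 7. Around FMOD and PRELP, 15 of 39 neighbours were tested, and with the knockout in SOX10 cells 4 rose and 6 fell, among them PPFIA4 (-1.67) and ADORA1 (0.79), where 55.0% of all genes changed. Around the chromosome 9 cluster, 15 of 38 were tested and 4 rose and 3 fell. CENPP, whose introns hold OMD, fell by 0.33 (adjusted p = 1.86e-05) there and did not pass for SOX10 in control cells (0.05, adjusted p = 0.632). OMD had 88 counts in control cells without SOX10 and 23 with it, and the part of CENPP reads in its counts was not tested. ECM2, a relative with leucine-rich repeats in the same stretch, rose with the knockout in SOX10 cells (0.78, adjusted p = 0.00687) and fell with SOX10 in knockout cells (-0.85, adjusted p = 4.35e-05). Around BGN, 27 of 50 were tested, and 5 rose and 8 fell with the knockout in SOX10 cells, again near the share of all genes. HAUS7, which overlaps the BGN start, was at 0.215 to 0.653 CPM and did not pass in the comparisons in which BGN fell.

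The genes that build and sulfate the chains of the family changed in both directions. Among the linker, chondroitin and dermatan sulfate genes 22 of 23 were tested, and with the knockout in SOX10 cells 8 rose and 10 fell, beside 55.0% of all genes changed, and with a median of -0.02 beside 0.02 over all genes (library-size scaling gave 11 and 6). CHST15, which adds a further sulfate to chondroitin sulfate, rose (3.22 ± 0.175, adjusted p = 2.11e-19), from a mean of 0.208 CPM to 2.01 CPM. PXYLP1, the xylose phosphatase that lets the linker be extended, fell (-1.49, adjusted p = 6.09e-32), as did XYLT1, which starts the linker (-1.49, adjusted p = 3.25e-22), and CSGALNACT1, which starts the chondroitin chain (-1.38, adjusted p = 5.19e-24). Without SOX10 the knockout gave 8 higher and 9 lower, beside 58.1% of all genes changed (library-size scaling gave 12 and 7), with CHST15 at 5.16, PXYLP1 at -2.78, CSGALNACT1 at -1.69 and DSE, the dermatan sulfate epimerase, at 1.68, all past the threshold. Like all lists here, this one was chosen with earlier results of these libraries known.

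SOX10 in knockout cells changed PXYLP1, CSGALNACT1, CHST15 and DSE in the direction opposite to the knockout. PXYLP1 rose by 1.82 (adjusted p = 2.21e-35) and CSGALNACT1 by 0.77 (adjusted p = 2.01e-16), while CHST15 fell by 1.61 (adjusted p = 2.48e-20) and DSE by 1.12 (adjusted p = 2.95e-21). In all 9 of the 22 rose and 8 fell, beside 56.2% of all genes changed, with a median of 0.02 beside 0.00 over all genes. These comparisons share the knockout libraries, so opposite signs are not independent of each other. In control cells SOX10 raised 5 and lowered 5, beside 34.4% of all genes changed, with the chondroitin 4-sulfotransferase gene CHST11 at 0.97, XYLT1 at 0.79, DSE at -0.70 and PXYLP1 at 0.53.

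Of the 9 keratan sulfate genes 8 were tested. With the knockout alone 2 rose and 5 fell, beside 58.1% of all genes changed (median -0.84, beside -0.01 over all genes). B3GNT7, which extends the keratan sulfate chain, fell from 22.0 to 3.38 CPM (-2.83, adjusted p = 9.32e-32), and the sulfotransferase genes CHST1 (-1.46, adjusted p = 5.52e-19) and CHST6 (-1.17, adjusted p = 4.80e-20) fell with it, while LUM, which can carry that chain, was higher. CHST4 also passed, at a mean of 0.00497 CPM in control cells and 0.189 CPM in knockout cells. With SOX10 in all cells the knockout gave 4 higher and 4 lower, beside 55.0% of all genes (median 0.00), CHST1 being at -1.55, B3GNT7 at -1.12 and CHST2 at -0.87. CHST6, lower with the knockout alone, was higher here (0.28, adjusted p = 4.38e-05), as were B4GALT1 (0.68) and B4GALT4 (0.29), galactosyltransferase genes named after their values were seen, and CHST4 on very few reads. SOX10 in knockout cells raised 5 and lowered 3 of the 8, beside 56.2% of all genes (median 0.38, beside 0.00 over all genes), with CHST6 up by 1.90 (adjusted p = 1.55e-30), B3GNT7 up by 1.73 (adjusted p = 2.14e-25) and CHST1 down from 11.2 to 5.50 CPM (adjusted p = 6.29e-15). In control cells it raised 3 and lowered 2, beside 34.4% of all genes, with CHST1 at -0.91.

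**Figure D4:**
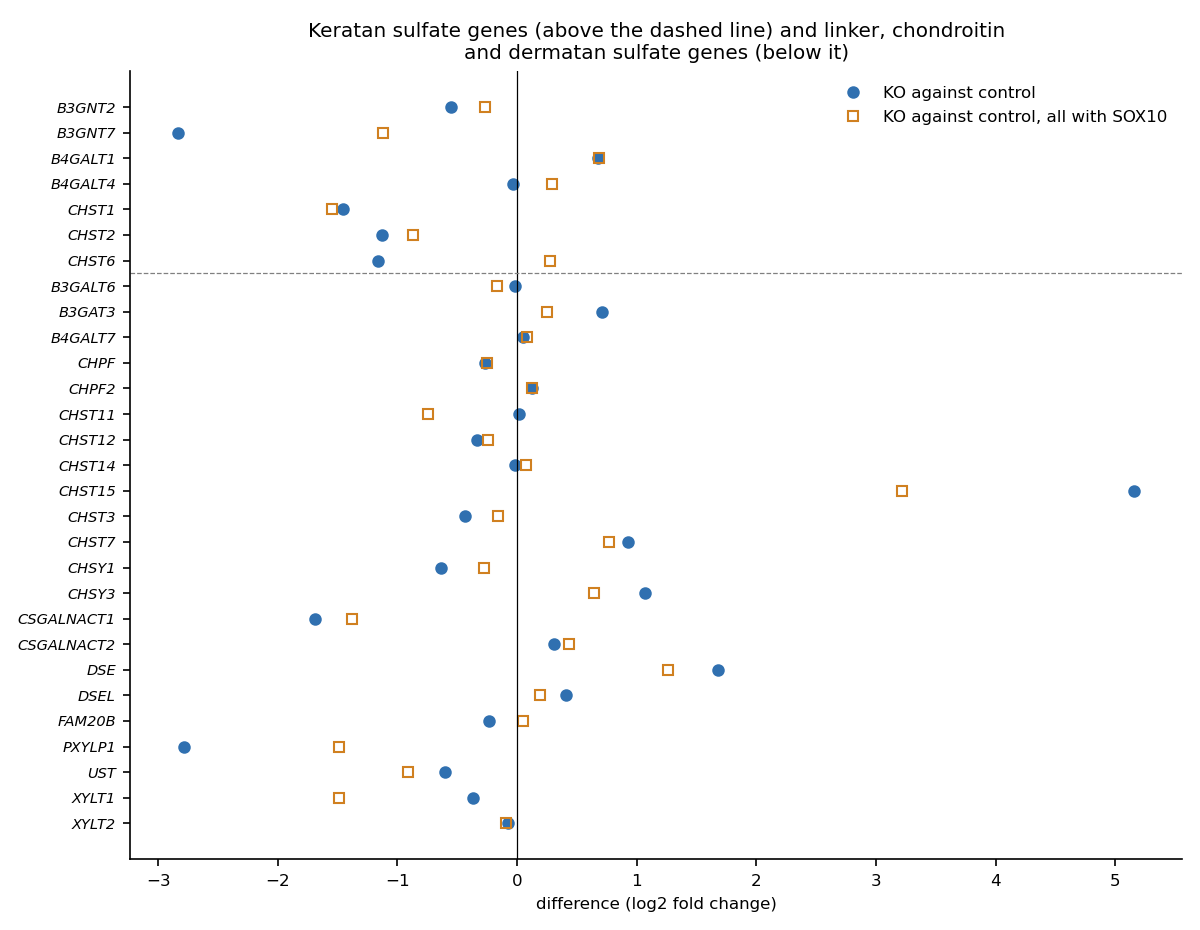
Log2 difference (horizontal axis) between knockout and control cells, both guides together, for the tested genes of keratan sulfate synthesis and of linker, chondroitin and dermatan sulfate synthesis, without SOX10 (filled blue circles) and with SOX10 in all cells (open orange squares). CHST4 is left out because control cells had almost no reads of it; CHST15 lies farthest right at 5.16 and 3.22, and B3GNT7 farthest left at -2.83 without SOX10.

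Supply of sulfate and sugar nucleotides was covered by 11 genes, all tested. With the knockout in SOX10 cells 3 rose and 6 fell, beside 55.0% of all genes changed (library-size scaling gave 4 and 5), and the sulfate transporter gene SLC26A2 fell from 855 to 305 CPM (-1.57, adjusted p = 7.91e-20). UGDH, which makes UDP-glucuronate, fell too (-0.69, adjusted p = 2.56e-23). SOX10 in knockout cells raised 6 and lowered 1, beside 56.2% of all genes, the largest being PAPSS2 at -0.58 and PAPSS1 at 0.41, both of which make the sulfate donor. The median of the list was -0.11 in the first of these comparisons and 0.16 in the second.

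The fibril collagens and partners that the family binds did not move as a block with the knockout in SOX10 cells, and with SOX10 more fell than rose. Of 21 genes 19 were tested, and the knockout in SOX10 cells raised 8 and lowered 8, beside 55.0% of all genes changed (10 and 8 under library-size scaling), with COL1A1 up from 0.384 to 3.13 CPM (3.03 ± 0.163, adjusted p = 1.67e-19) and COL11A1 down (-1.81, adjusted p = 1.74e-11). SOX10 in knockout cells raised 8 and lowered 11 (median -0.76, 56.2% of all genes changed), and in control cells it raised 3 and lowered 12 (median -0.64, 34.4% of all genes changed), beside medians of 0.00 and -0.01 over all genes. COL14A1, a collagen of the fibril surface, rose with SOX10 from 0.0235 to 7.46 CPM in knockout cells (adjusted p = 2.96e-35) and from 0.686 to 10.7 CPM in control cells (3.96, adjusted p = 1.64e-26). COL2A1, the cartilage collagen, rose in knockout cells (2.82, adjusted p = 8.41e-13), while TNXB (-2.29), COL5A3 (-2.12) and COL6A3 (-1.85) fell in control cells.

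Other proteoglycan core proteins were mixed as well, with 22 of 24 tested. SOX10 in knockout cells raised 8 and lowered 9, and the knockout in SOX10 cells raised 8 and lowered 11 (9 and 9 under library-size scaling), beside 56.2% and 55.0% of all genes changed. ACAN, the aggrecan gene of cartilage, followed SOX10, rising by 6.10 (adjusted p = 1.67e-40) in knockout cells from 0.229 to 14.9 CPM, and by 3.43 (adjusted p = 1.63e-34) in control cells from 5.96 to 64.0 CPM. It fell with the knockout in SOX10 cells (-2.11, adjusted p = 6.81e-33), which is the opposite of DCN and LUM. The heparan sulfate proteoglycan gene GPC4 rose with SOX10 by 1.58 in knockout cells and 1.25 in control cells, and GPC6 fell with the knockout by 1.45 with or without SOX10. Of 8 further leucine-rich family genes only 3 were tested, and TSKU fell with SOX10 in both backgrounds (-0.21 and -0.48).

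Receptors, growth factors and proteases known to bind or cut the family were tested for 28 of 30 genes. The knockout in SOX10 cells raised 14 and lowered 5 (18 and 5 under library-size scaling), beside 55.0% of all genes changed, with a median of 0.32 beside 0.02 over all genes. TLL1 (4.29, adjusted p = 2.44e-20) and TLL2 (1.89, adjusted p = 3.77e-13), proteases of the group that trims biglycan and collagen, rose, and so did the growth factor gene TGFB2 (2.23, adjusted p = 8.05e-21), whose product decorin and biglycan bind. SOX10 in knockout cells raised 10 and lowered 16, beside 56.2% of all genes (median -0.19, beside 0.00 over all genes). The VEGF receptor gene KDR rose from 0.325 to 30.4 CPM (6.58, adjusted p = 2.29e-42), and MMP3, a stromelysin that cleaves decorin, fell from 26.9 to 1.58 CPM (-4.10, adjusted p = 2.16e-39). In control cells 8 rose and 9 fell, beside 34.4% of all genes, with EGFR, to which decorin binds, at -1.56 and MMP13 at -1.57.

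Markers of cells that make these proteoglycans in tissue were checked in the same libraries. The 12 fibroblast markers other than family members summed to 27.2 to 27.9 CPM in control cells, 35.2 to 38.0 and 39.7 to 40.8 CPM in guide 1 and guide 2 knockout cells, and 16.6 to 17.5, 15.2 to 17.8 and 17.0 to 18.4 CPM in the control, guide 1 and guide 2 cells with SOX10. COL6A3 made up much of this sum, with a mean of 21.0 CPM in control cells and 5.83 CPM with SOX10. Without it, a sum added after seeing the data, the other 11 markers were at 5.40 to 7.45 CPM in control cells. They were at 22.1 to 24.8 and 27.2 to 27.7 CPM in the guide 1 and guide 2 knockouts. With SOX10 they were at 10.9 to 11.5 CPM in control cells and 12.3 to 13.7 and 14.0 to 15.5 CPM in the knockouts. LUM was highest in the knockouts with SOX10, where this sum was lower than in the knockouts alone. A link between LUM and this sum was not tested. In control, guide 1 and guide 2 cells, mean COL1A1 was 0.984, 8.13 and 9.10 CPM, MFAP5 0.0899, 2.57 and 4.79 CPM, and POSTN 0.165, 2.77 and 2.95 CPM. In the same groups PDGFRA was lower with the knockout, at 1.37, 0.745 and 0.715 CPM, as was COL6A3, at 21.0, 13.0 and 12.9 CPM. COL1A2 was also lower, at 0.0941, 0.0403 and 0.0468 CPM. Of 9 fibroblast markers tested, 7 rose and 2 fell with the knockout alone, beside 58.1% of all genes changed. With SOX10 in knockout cells 1 rose and 8 fell, beside 56.2% of all genes. With SOX10 in control cells 3 rose and 2 fell, beside 34.4%. With the knockout in SOX10 cells 3 rose and 4 fell (5 and 3 under library-size scaling), beside 55.0%. DPT was at 0 in every library and TCF21 below 0.1 CPM in every group. The cartilage and bone markers summed to 9.03 to 9.73 CPM in control cells and 6.85 to 9.07 CPM with SOX10. They summed to 18.2 to 21.1 CPM in the knockouts and 17.8 to 25.2 CPM in the knockouts with SOX10, with IBSP and TNMD at 0 throughout. Most of this was MATN3 and RUNX2, at means of 4.04, 9.23 and 11.8 CPM and of 4.69, 9.22 and 8.42 CPM in control, guide 1 and guide 2 cells. COL2A1 went the other way, at 0.707, 0.125 and 0.0627 CPM. In guide 1 and guide 2 cells with SOX10, MATN3 was at 13.7 and 19.0 CPM and RUNX2 at 3.80 and 4.46 CPM. The pericyte markers summed to 5.38 to 6.11 CPM in control cells with or without SOX10 and 7.09 to 10.1 CPM in the knockout groups, the endothelial markers to at most 2.10 CPM, and the leukocyte markers to 5.29 to 21.7 CPM, nearly all of it LYZ. The melanoma markers summed to 607 to 636 CPM in control cells and 227 to 307 CPM in the knockouts, and with SOX10 to 904 to 916 and 428 to 543 CPM. That sum holds SOX10 itself. Without it the sum was 267 to 278 CPM in control cells and 451 to 466 CPM with SOX10. Most of that rise was DCT, which went from a mean of 1.01 to 156 CPM. MITF went from 39.7 to 85.4 CPM and S100B from 14.2 to 35.0 CPM, while CSPG4 went from 211 to 171 CPM and MLANA from 1.16 to 1.06 CPM. The sum was 206 to 220 and 235 to 238 CPM in guide 1 cells without and with SOX10. It was 187 to 202 and 185 to 196 CPM in guide 2 cells, where the groups overlapped. The part of these changes in the differences of the family was not tested.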

How the data were processed

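RNA was sequenced from 18 A375 libraries in 6 groups. The deposited values are raw read counts per gene; the authors used HISAT2, HTSeq and hg38, per the submitters' processing notes. Tool versions, gene annotation and strand setting were not given in the sources used here. Genes were named by Ensembl ID with GENCODE 29.

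Counts were filtered (edgeR 4.0.16 filterByExpr, 21060 genes kept), scaled by TMM and fitted with the 6 group means over all 18 libraries (quasi-likelihood, robust, 12 residual degrees of freedom, common biological coefficient of variation 4.02%). Tests were two-sided, with Benjamini-Hochberg adjustment over all genes and a threshold of 0.05. Knockout effects with SOX10, and SOX10 effects in knockout cells, are means of the 2 guides. Intervals are 95%. The fit was tested on simulated data.

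The members and gene lists were chosen with earlier results of these data known. Beside the members, SOX10, TADA2B and the markers, the genes named were up to 4 of each list with the largest change past the threshold in a comparison, tested genes within 500 kb of a member, and the 5 genes nearest in profile to each of the 3 members with the widest range. Alternatives were DESeq2 1.42.0 (R 4.3.3), other scalings and filters, the compared groups alone, a replicate block and leaving out each library. Counts of each list under other scalings and without guide 2 replicate 2, and marker sums without COL6A3 or SOX10, were added after seeing the data.

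Same-numbered libraries of different groups deviated together at most weakly (median correlation 0.0065 over 45 pairs), so the main fit did not treat them as paired. Depth intervals cover counting error only.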

Additional observations from a re-analysis of the deposited data

Results flagged for a closer look

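The effect of SOX10 overexpression differed between knockout and control cells in 3 of the 4 genes LUM, DCN, BGN and PRELP. This was by edgeR's test of the difference itself, which 33.3% of all genes passed. The difference was 0.88 (log2) for DCN, -1.02 for BGN and 1.14 for PRELP. For OMD it was 4.56, a fitted value that rests on 3 and 1 counts in the knockout groups without SOX10 and is no bound on the change. OMD entered the test through the control libraries that this comparison uses, so it is not counted here.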

How the results depend on the processing

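Of 175 recomputed counts of members past the threshold, OMD included, 172 stayed within 1.5 times the reported count. This is a coarse check, since with counts of 3 to 5 that rule allows the gain or loss of 1 member. Single genes did cross the threshold in some settings, such as BGN for SOX10 in control cells and LUM for the difference in SOX10 effects. The counts outside 1.5 times came from a filter on a mean of at least 1 CPM, which removes PRELP and OMD from the test. With that filter 3 members passed for SOX10 in knockout cells, beside 9623 of 14194 genes. For the difference in the SOX10 effect 2 passed, beside 6516 genes, and for knockout plus SOX10 against control 3, beside 10079. With a replicate block, the member counts over all 5 tested genes, OMD included, were as without it. SOX10 in control cells gave 3 (beside 7439 of 21060 genes), SOX10 in knockout cells 5 (11945) and the knockout with SOX10 in all cells 4 (11664). The difference in SOX10 effects gave 4 (7213) and knockout plus SOX10 against control 5 (12297). Between guides 0 passed without SOX10 (2036 genes) and 1 with it (2783). OMD entered the test through the control libraries, so its passing in comparisons that use them is no support. Whether the numbers pair the libraries is not settled. Of 18 libraries, 12 correlated best with a library of their own number, although fewer pairs shared a number (45) than did not (90). The median correlation was near 0 for both kinds of pair, at 0.0065 and -0.0064. Over all genes the block gave somewhat more calls, such as 7439 against 7245 for SOX10 in control cells. Values that changed sign were all guide differences near 0 or on few counts. Leaving out 1 library at a time gave -0.075 to 0.063 for BGN without SOX10, and with SOX10 -0.15 to 0.24 for PRELP and -1.66 to 0.84 for OMD. Depth limits OMD, EPYC, KERA, OGN, ASPN and FMOD, whose counts stayed below 40 in every library.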

Other observations

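Genes whose log2 CPM profile over the 18 libraries lay closest to a member were listed for LUM, BGN and OMD, by root mean square difference of centred values. For LUM these were ITGB2 (0.237), CHMP4C (0.245), VGLL3 (0.264), FBLIM1 (0.286) and RNF144B (0.357). For BGN they were IER5L (0.227), HTRA1 (0.319), ANGPTL2 (0.330), ASAP3 (0.361) and IRF2BPL (0.367). OMD had no close match, KRT9 being nearest at 1.10. That distance includes the spread of OMD on few reads, such as 1, 11 and 1 counts in guide 2 cells with SOX10. No conclusion on the OMD profile is drawn from it. Between members the distance was 0.818 for BGN and PRELP, 1.15 for the neighbours LUM and DCN and 2.28 for LUM and BGN, so the nearest profile to LUM was not that of its neighbour.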
